A study of Homo sapiens with 6 samples.

Results

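The genes described here encode the machinery that sorts membrane proteins at the endosome: the ESCRT complexes, the VPS4 ATPases with ALIX, retromer with its sorting nexins, and the HOPS and CORVET tethers. They were chosen by symbol, as a list of 44 genes, from a table of 17156 genes. All 44 are in the table, and all 44 passed the filter on low counts, as did 12671 genes in all. The question was whether transcript levels of this machinery differ when VPS13C is depleted. VPS13C encodes a bridge-like lipid transfer protein that sits where the endoplasmic reticulum meets late endosomes and lysosomes.

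SiHa is an established line grown from a cervical squamous cell carcinoma that carries human papillomavirus. The study placed 3 libraries in the knockdown group (short hairpin RNA against VPS13C, shVPS13C) and 3 in the control group (control hairpin, shcontrol). Cells of both groups had spent 48 h in 20 µM cisplatin, which crosslinks DNA. Cells without the drug are not analysed here, so the comparison is between hairpins under cisplatin and not a response to cisplatin. The labels give neither the hairpin sequences nor whether the cells were a pool or a clone, nor is it said that replicates came from different cultures. The p-values therefore measure the spread between these libraries, which may be technical.

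Library totals lay between 15643965 and 16333424 estimated counts. The targeted gene VPS13C (chromosome 15, 61852389 to 62060447, hg38) stood at 23.7, 25.1 and 27.5 CPM in shVPS13C and at 50.0, 54.9 and 49.6 CPM in shcontrol. CPM are counts scaled to the TMM-adjusted size of the library. All knockdown libraries lay below all control libraries (log2 fold change -1.02, SE 0.065, edgeR quasi-likelihood adjusted p = 4.77e-10; exact two-sided permutation p = 0.1, the smallest that 3 against 3 allows). Of 13 epithelial markers, 9 exceeded 1 FPKM (the authors' read density, corrected for transcript length and library size). KRT7, KRT8, KRT17 and KRT18 were the most abundant, while KRT5, KRT6A, KRT14 and TP63 were near 0. The summed level of that list, carried by the 4 keratins, ran from 4820 to 4985 FPKM in shVPS13C and from 4775 to 5154 FPKM in shcontrol. Within it CDH1 was higher in shVPS13C, at 10.35 to 10.76 FPKM, against 8.59 to 8.98 FPKM in shcontrol (log2 0.27, edgeR adjusted p = 0.00359). LAMB3 was lower, at 93.1 to 97.5 FPKM in shVPS13C, against 108 to 119 FPKM in shcontrol (log2 -0.29, adjusted p = 0.000183). KRT19 (log2 -0.21, adjusted p = 0.0508) and KRT17 (-0.11, 0.114) did not overlap between groups and did not pass. Among markers of other cell types the leukocyte gene PTPRC and the endothelial gene TEK were at 0, and the 6 endothelial markers summed to at most 1.02 FPKM in shVPS13C and 0.95 in shcontrol. CD68 made up most of the leukocyte list, at 39.13 to 41.58 FPKM in shVPS13C and 38.33 to 41.08 in shcontrol for the list. The 8 fibroblast markers summed to 3.70 to 4.24 FPKM in shVPS13C and 2.91 to 2.95 in shcontrol, nearly all of it from COL1A1, which was higher in shVPS13C (log2 0.43, edgeR adjusted p = 0.00171). What part these marker differences have in the results was not tested. In bulk RNA such as this, fewer cells with a transcript and less of it per cell cannot be told apart.

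Endosomal sorting has a fixed order of handling. ESCRT-0 gathers ubiquitinated receptors on the early endosome, ESCRT-I and ESCRT-II pass them on, and ESCRT-III polymerises into the filaments that pinch vesicles into the lumen of the multivesicular body before VPS4 takes the filaments apart. Retromer works the other way, returning receptors from the endosome to the Golgi or the cell surface, in part with sorting nexins that bend the membrane into tubules. CORVET tethers early endosomes, and HOPS tethers late endosomes to lysosomes before they fuse. The ESCRT-III filaments also act outside endosomes, in the last cut of cell division and in repair of the plasma membrane, lysosome and nuclear envelope.

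Of the 44 sorting genes, 1 changed. CHMP4B, the ESCRT-III gene with the highest transcript level by FPKM, was lower in shVPS13C, and none was higher. Over all 12671 tested genes, 4.50% passed the same threshold (edgeR quasi-likelihood, Benjamini-Hochberg adjusted p under 0.05), with 2.27% higher and 2.23% lower, so 1 call among 44 is not above the general level. The other 43 had adjusted p-values of 0.189 or more. Of the 44, 5 had an unadjusted p under 0.05 (11.4%, against 18.9% of all tested genes): CHMP4B, STAM2, VPS29, VPS18 and CHMP3. Libraries of the groups did not overlap in 10 of the 44, or 22.7%, where 23.1% of all tested genes did not overlap.

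The differences were small in both directions. Log2 fold changes (shVPS13C over shcontrol) ran from -0.16 in CHMP4B to 0.15 in MVB12B, with 21 genes above 0 and 23 below. Their median was -0.0082, beside -0.0010 for all tested genes, and the median size regardless of sign was 0.039, beside 0.071. The sorting genes are also read more deeply than the rest, with a median of 70.1 CPM beside 37.8 CPM over all tested genes, and their median SE was 0.047, beside 0.061. For 41 of the 44 the 95% confidence interval lay wholly inside a 1.2-fold change either way (a bound picked with the values known), as it did for 65.4% of all tested genes. The 3 whose interval crossed the bound were MVB12B (upper limit 0.34), CHMP6 (0.34) and VPS41 (0.26).

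**Figure D1:**
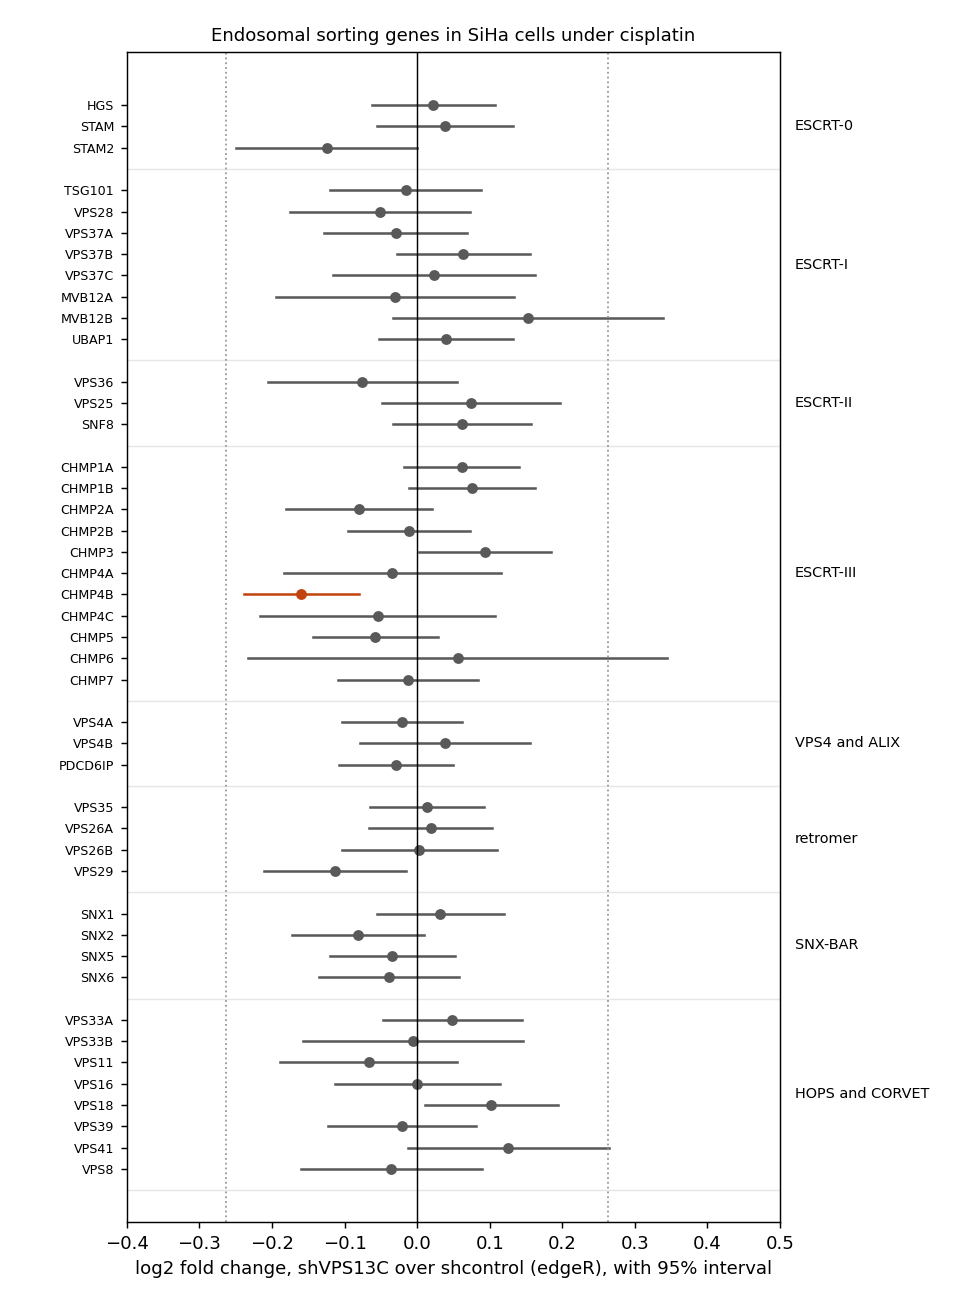
Log2 fold change of each of the 44 sorting genes in shVPS13C over shcontrol (x axis), grouped by complex, with points for the edgeR estimate and bars for its 95% confidence interval; dotted lines mark a 1.2-fold change. CHMP4B (red, log2 -0.16) is the 1 gene past the threshold, and the widest interval is that of CHMP6, the gene with the lowest level.

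ESCRT-0 binds cargo first. HGS, its scaffold, which holds the endosomal lipid PI3P and ubiquitin, stood at 223, 234 and 221 CPM in shVPS13C and 217, 217 and 234 CPM in shcontrol. Its groups overlapped and its log2 fold change was 0.02 (95% interval -0.06 to 0.11). STAM2, an HGS partner that binds ubiquitin, stood at 35.5, 32.2 and 34.0 CPM in shVPS13C and 37.5, 37.4 and 35.9 CPM in shcontrol. The knockdown libraries of STAM2 were all the lower ones, by a margin of under 1 CPM between the nearest libraries, but the gene did not pass (log2 -0.12, SE 0.060, edgeR adjusted p = 0.261). Its close relative STAM had a log2 fold change of 0.04 (adjusted p = 0.704), with overlapping groups.

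ESCRT-I bridges cargo to the later complexes, and none of its 8 genes passed (adjusted p from 0.376 to 0.904). TSG101, the subunit that binds ubiquitin and the short motifs that viruses borrow to bud, stood at 84.2, 78.1 and 80.1 CPM in shVPS13C and 87.6, 80.9 and 76.6 CPM in shcontrol. Its groups overlapped, and the 95% interval of its log2 fold change was -0.12 to 0.09. VPS28, which contacts ESCRT-II, had a log2 fold change of -0.05, and the VPS37 subunits lay between -0.03 in VPS37A and 0.06 in VPS37B. VPS37B was the 1 gene of the complex with groups that did not overlap (adjusted p = 0.465). UBAP1, one of the interchangeable accessory subunits, had a log2 fold change of 0.04 and MVB12A, another, -0.03.

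The third of these accessory subunits, MVB12B, was the ESCRT-I gene with the smallest p. It stood at 12.99, 12.13 and 13.33 CPM in shVPS13C and 11.75, 10.66 and 12.18 CPM in shcontrol, with 1 control library above 1 knockdown library (log2 0.15, SE 0.090, edgeR adjusted p = 0.376). On the FPKM scale its direction turned, with 5.93, 5.38 and 5.74 FPKM in shVPS13C and 6.70, 5.55 and 6.30 FPKM in shcontrol. The share of its most abundant transcript also differed between the groups, as given with the transcripts further on, and its part in the turn of direction was not tested.

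The ESCRT-II genes did not pass (adjusted p from 0.502 to 0.560). SNF8 stood at 72.4, 68.8 and 68.5 CPM in shVPS13C and 68.2, 66.9 and 65.9 CPM in shcontrol, all knockdown libraries above all control ones by a narrow margin (log2 0.06, SE 0.046). VPS25, which recruits the ESCRT-III subunit CHMP6, had a log2 fold change of 0.07, and VPS36, which binds lipid and ubiquitin, -0.08.

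ESCRT-III held the 1 gene that changed. CHMP4B (Entrez 128866, chromosome 20, 33811348 to 33854366) stood at 225.6, 224.2 and 222.7 CPM in shVPS13C and 253.2, 242.3 and 255.6 CPM in shcontrol. The knockdown libraries lay close together, and every one of them was below every control library. The mean was 224 ± 1.47 CPM in shVPS13C and 250 ± 7.12 CPM in shcontrol (SD, n = 3 each), a fall to 0.895 of the control level (log2 -0.16, SE 0.038, 95% interval -0.24 to -0.08, edgeR adjusted p = 0.0166). CHMP4B subunits make up the bulk of the filament, and 2.13% of the gene's 50-base stretches are also in another annotated gene. The direction held in all 13 alternatives, with log2 values of -0.18 to -0.14, but the call did not. It ended without shVPS13C 1, 2 or 3 (adjusted p = 0.0730, 0.0636 and 0.0837), without shcontrol 1 (0.0537), and with limma-trend on log2(FPKM + 1) (0.0627) or log2(FPKM + 0.1) (0.0616), over a range of 0.00645 to 0.0837.

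The other ESCRT-III genes fell on either side of 0 and none passed. Of CHMP4B's 2 paralogs, CHMP4A had a log2 fold change of -0.03 (95% interval -0.18 to 0.12) and CHMP4C, which times abscission in dividing cells, -0.05 (-0.22 to 0.11). CHMP3, which with CHMP2A caps the filament and recruits VPS4, stood at 86.1, 84.6 and 82.9 CPM in shVPS13C and 76.9, 81.0 and 79.8 CPM in shcontrol. Its knockdown libraries were all the higher ones, yet the gene did not pass (log2 0.09, SE 0.044, edgeR adjusted p = 0.251). CHMP2A (-0.08) and CHMP5 (-0.06) had negative values, and the regulatory subunits CHMP1A (0.06) and CHMP1B (0.08) positive ones. CHMP6, which nucleates the filament on ESCRT-II, was the least abundant of the 44 genes, at 5.6, 4.3 and 5.9 CPM in shVPS13C and 4.8, 5.1 and 5.4 CPM in shcontrol, and its interval of -0.23 to 0.34 was the widest. CHMP2B had a log2 fold change of -0.011 and CHMP7, which closes the nuclear envelope after division, one of -0.013.

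Neither the genes for taking the filament apart nor that of their partner ALIX passed. VPS4A, one of the ATPases, stood at 251, 269 and 247 CPM in shVPS13C and 259, 263 and 256 CPM in shcontrol, and the groups overlapped (log2 -0.02, 95% interval -0.10 to 0.06). VPS4B had a log2 fold change of 0.04 (-0.08 to 0.16). PDCD6IP encodes ALIX, which binds CHMP4 subunits and offers a second way to recruit them. It stood at 250, 241 and 249 CPM in shVPS13C and 255, 255 and 245 CPM in shcontrol, with overlapping groups (log2 -0.03, SE 0.038, edgeR adjusted p = 0.740).

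None of the retromer genes passed. VPS35, the central scaffold of the trimer, had the smallest SE of the 44 (0.038). It stood at 213, 209 and 206 CPM in shVPS13C and 207, 211 and 203 CPM in shcontrol, and its log2 fold change of 0.01 had an interval of -0.06 to 0.09. VPS26A (0.02) and VPS26B (0.0032), the interchangeable cargo-side subunits, also overlapped between groups. VPS29, the small subunit that binds regulators of the complex, stood at 79.5, 72.7 and 80.6 CPM in shVPS13C and 85.1, 81.7 and 85.1 CPM in shcontrol. All knockdown libraries of VPS29 were below all control libraries, with shVPS13C 2 the lowest, and the gene did not pass (log2 -0.11, SE 0.047, edgeR adjusted p = 0.189). Without shVPS13C 2 its log2 fold change was -0.0682.

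Among the sorting nexins that pair through their BAR domains, SNX2 stood at 74.1, 71.8 and 72.7 CPM in shVPS13C and 76.7, 77.7 and 76.9 CPM in shcontrol. Its groups did not overlap and it did not pass (log2 -0.08, SE 0.044, edgeR adjusted p = 0.324). SNX1 (0.03), SNX5 (-0.03) and SNX6 (-0.04) overlapped between groups.

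Of the tether genes none passed (adjusted p from 0.207 to 0.999). VPS18, a core subunit shared by HOPS and CORVET, stood at 77.6, 77.0 and 76.1 CPM in shVPS13C and 73.6, 70.5 and 70.8 CPM in shcontrol, all knockdown libraries above all control ones (log2 0.10, SE 0.045, edgeR adjusted p = 0.207). Log2 fold changes of the other core genes were -0.07 in VPS11, 0.00017 in VPS16 and 0.05 in VPS33A. VPS41, a HOPS subunit that binds the late endosome and lysosome, stood at 31.9, 36.2 and 33.2 CPM in shVPS13C and 32.3, 31.8 and 28.7 CPM in shcontrol. Its groups overlapped through 1 control library (log2 0.13, SE 0.067, edgeR adjusted p = 0.319). VPS8, its counterpart in CORVET, had a log2 fold change of -0.04, and VPS39, the other HOPS-specific subunit, one of -0.02. VPS33B, which acts with VIPAS39 in a separate complex rather than in HOPS, had one of -0.0055.

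**Figure D2:**
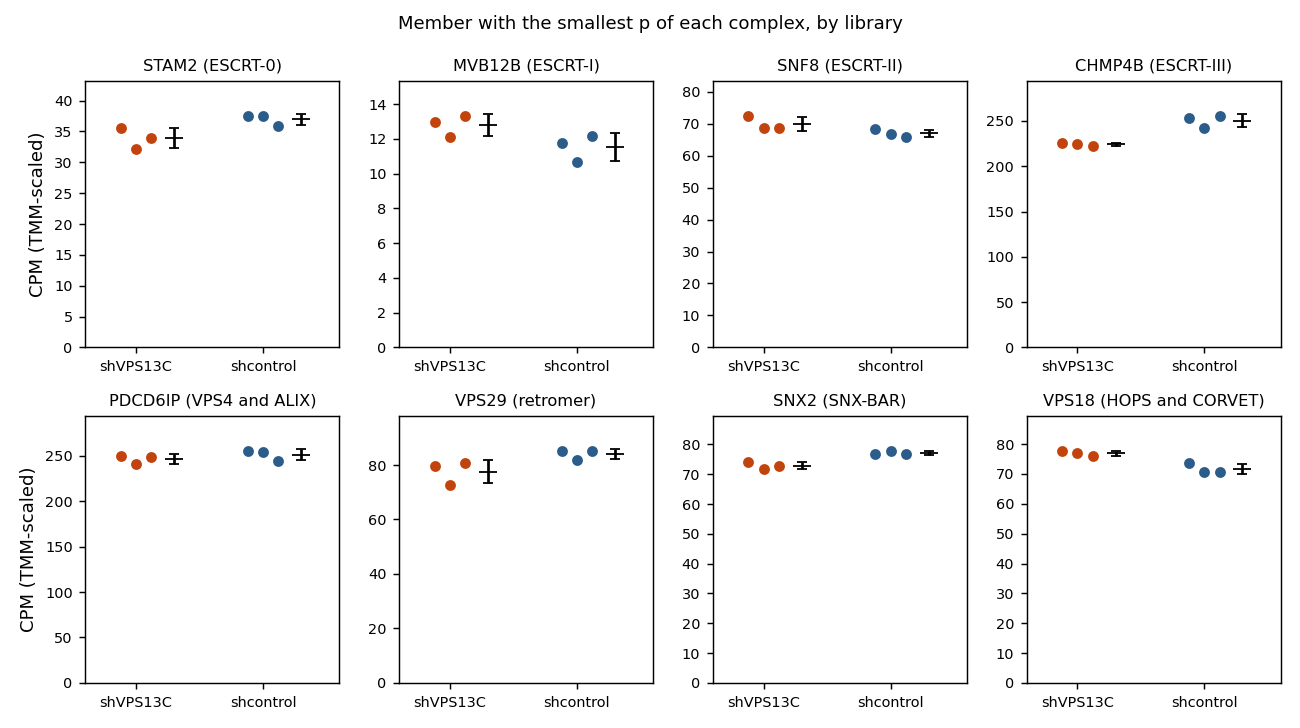
CPM in each library (points; shVPS13C red, shcontrol blue; y axes from 0) for the gene with the smallest p in each of the 8 groups of sorting genes, with the mean and SD of 3 libraries in black. CHMP4B shows the clearest separation, at 224 ± 1.47 CPM in shVPS13C and 250 ± 7.12 CPM in shcontrol, while PDCD6IP and MVB12B overlap.

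Levels per transcript length, as the authors' FPKM, spread widely within most complexes. CHMP4B was the highest of the 44, at 171, 169 and 168 FPKM in shVPS13C and 191, 184 and 192 FPKM in shcontrol. CHMP1A followed at 131, 129 and 124 FPKM in shVPS13C and 124, 126 and 119 FPKM in shcontrol, and CHMP2A at 95.2, 99.5 and 93.8 FPKM in shVPS13C and 95.4, 105 and 103 FPKM in shcontrol. All of the top 3 are ESCRT-III subunits, and the ranges of these genes over the 6 libraries did not overlap with each other. VPS29, the next in order, reached 94.7 FPKM and so overlapped with CHMP2A. At the low end CHMP6 had 4.09, 3.10 and 4.25 FPKM in shVPS13C and 3.45, 3.68 and 3.87 FPKM in shcontrol. MVB12B (mean 5.68 ± 0.279 FPKM in shVPS13C, 6.18 ± 0.584 in shcontrol) and STAM2 (6.52 ± 0.325 in shVPS13C, 7.12 ± 0.199 in shcontrol; SD, n = 3 each) came next, and their ranges overlapped with each other. Within HOPS and CORVET the genes lay closest together by ratio, from 7.72 FPKM for VPS8 to 20.9 FPKM for VPS18 as means over all libraries, while ESCRT-III ran from 3.74 to 179 FPKM.

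**Figure D3:**
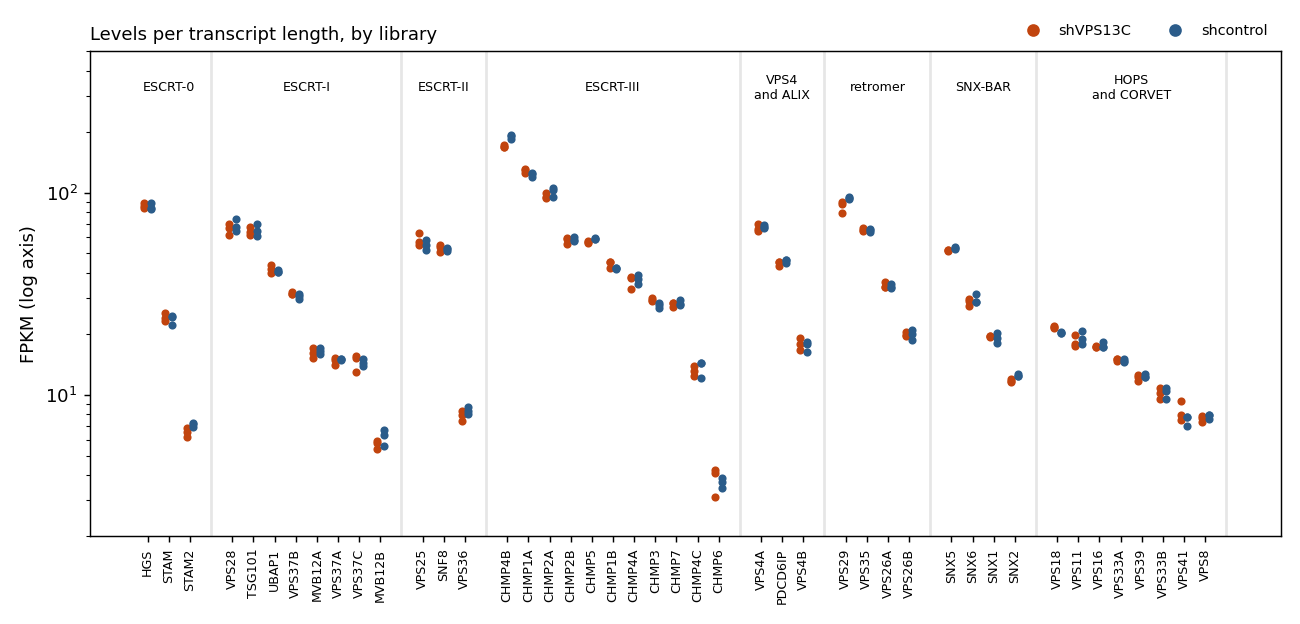
FPKM of each sorting gene in every library (log y axis), ordered within each complex from high to low, with shVPS13C in red left of shcontrol in blue. Levels within ESCRT-III run from 3.74 FPKM (CHMP6) to 179 FPKM (CHMP4B), and the points of the groups lie close together for nearly every gene.

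Several of the genes have paralogs among the 44, most of them alternative forms of a subunit, and the share of each gene in the summed FPKM of its set is given here as a description without a test. CHMP4B made up 77.4% ± 0.890 of the CHMP4 set in shVPS13C and 78.8% ± 0.670 in shcontrol (SD, n = 3 each), and these ranges overlapped. CHMP4A made up 16.7% ± 1.17 in shVPS13C and 15.5% ± 0.747 in shcontrol, leaving CHMP4C the smallest part. VPS4A outweighed VPS4B, with 78.8% ± 1.73 in shVPS13C and 79.5% ± 0.813 in shcontrol, and VPS26A outweighed VPS26B, with 63.6% ± 1.06 in shVPS13C and 63.4% ± 1.77 in shcontrol. STAM took 78.8% ± 0.841 of the STAM pair in shVPS13C and 76.9% ± 1.27 in shcontrol. The SNX1 share of the SNX1 and SNX2 pair was 62.4% ± 0.361 in shVPS13C and 60.5% ± 1.37 in shcontrol. This pair was the 1 of 11 sets in which the groups did not overlap. Its nearest libraries were shVPS13C 1 (62.12%) and shcontrol 1 (62.03%). How often sets of other genes separate in this way was not computed. No share differed by as much as 2 percentage points between group means.

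**Figure D4:**
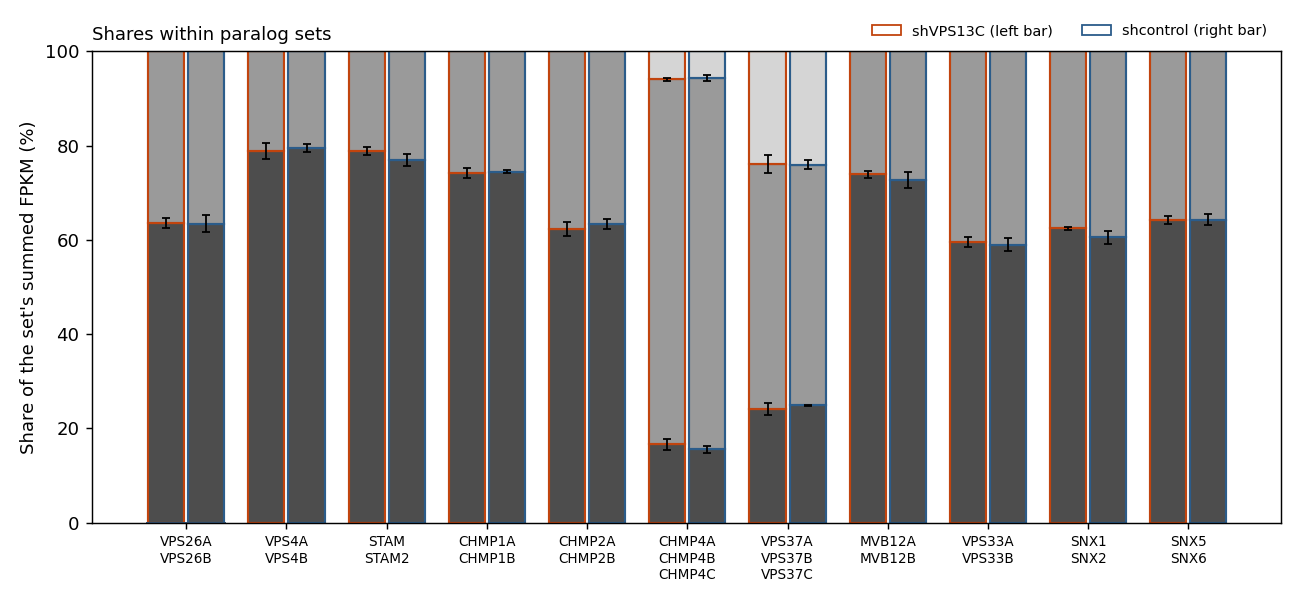
Share of each gene in the summed FPKM of its set (y axis, percent; darkest segment for the first gene named under each pair of bars), with shVPS13C (red outline) left of shcontrol (blue outline); whiskers are SDs of 3 libraries, drawn at the lowest boundary for the first gene's share and at the upper one for the last gene's. Segments match closely between the groups, as in VPS26A, with 63.6% in shVPS13C and 63.4% in shcontrol.

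The authors' transcript table lists 181 transcripts for the 44 genes. A single transcript stands for 9 of them, CHMP4B among these, and the remaining 35 have up to 13 (VPS8). Transcript counts are estimates, since a read from an exon that transcripts share fits each of them, and the shares that follow were picked after their values were seen and are given without a test. In 3 of the 35 genes, or 8.57%, the most abundant transcript's share of the gene differed by 10 percentage points or more with groups that did not overlap, where 2.62% of 8432 tested genes with several transcripts and at least 100 counts in each library did so. Without the limit of 10 points the groups did not overlap in 4 of the 35 (11.4%), near the 10.1% of those 8432 genes. In MVB12B, transcript NM_033446.3 held 66.5%, 67.2% and 64.5% in shVPS13C and 57.5%, 55.3% and 54.4% in shcontrol, on a gene mean of 12.8 CPM in shVPS13C and 11.5 CPM in shcontrol. In VPS16, transcript NM_022575.4 held 82.0%, 88.5% and 78.3% in shVPS13C and 68.8%, 68.6% and 77.1% in shcontrol, while the gene as a whole had a log2 fold change with a 95% interval of -0.11 to 0.11. In VPS37C, which joins TSG101 in ESCRT-I, transcript NM_017966.5 held 100.0% in each shVPS13C library and 92.5%, 84.5% and 88.2% in shcontrol. The median size of the difference was 1.59 percentage points over the 35 genes and 2.11 over the 8432.

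For 18 of the 44 genes more than 5% of the 50-base stretches are also in another gene of the GENCODE annotation, on either strand. Part of their reads can thus belong elsewhere, but for stretches on the opposite strand only if counting ignored strand. The largest shares were in CHMP4A (61.4%), VPS33B (48.5%), VPS4A (35.7%) and VPS37B (33.1%), each mostly with a gene that overlaps it. CHMP3 shares 10.8% with the readthrough gene RNF103-CHMP3. VPS16 shares 14.4% with its neighbour PTPRA, on the same strand. In 10 genes more than 5% of exon bases lie opposite another gene. HGS (23.5%) and VPS4A (22.0%) are among them and also among the 18. Whether counting used strand is not given in the sources used here.

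Many lysosomal and some endosomal genes carry a CLEAR element, an extended E-box palindrome bound by TFEB and its relatives, in their promoters. Promoters of 33 of the 44 genes could be matched (RefSeq, GRCh38.p14, 250 bases before to 50 after the start site), leaving out VPS28, VPS37A, VPS37C, CHMP3, CHMP4C, CHMP6, CHMP7, VPS26A, VPS33A, VPS33B and VPS18. The core CACGTG, which reads the same on both strands and lies inside the longer motifs, was in 6 of 33 (18.2%), where 10.4% of the promoters of 10327 tested genes and 7.43% of all 27305 promoters held it. The form TCACGTGA was in 3 (9.09%, against 1.97% and 1.04%). In CHMP4A alone the form was also flanked by G and C, the full palindrome. The 3 promoter windows with TCACGTGA are shown because they hold the closest matches to the element; TCACGTGA is in capitals, 5′ to 3′ on the gene's strand.
CHMP4A (chr14:24213586-24213613, minus strand): gtggcttgggTCACGTGAcaccggtggt
PDCD6IP (chr3:33798514-33798541, plus strand): cgcgacacctTCACGTGAccgcggacag
VPS11 (chr11:119067773-119067800, plus strand): ctggctcagcTCACGTGAcaaagctccc
The motif begins 115 bases before the start site in CHMP4A, 106 in PDCD6IP and 35 in VPS11. Their log2 fold changes were -0.03, -0.03 and -0.07, and none passed the test (edgeR adjusted p = 0.850, 0.740 and 0.589). A match is a description of letters and does not show that a factor binds there.

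Another 77 genes of the same pathway outside the list of 44 were read from the same fit, 76 of them tested: partners of ESCRT, retromer and the tethers, the Commander complex, and receptors that endosomes sort. Of the 76, 3 rose, 1 fell and 72 did not pass, so that the 4 calls lie near the general level of 4.50% (2.27% higher and 2.23% lower over all tested genes). Of the same 76, 20 had an unadjusted p under 0.05 (26.3%, beside 18.9% of all tested genes). COMMD2, a subunit of the Commander complex that recycles receptors beside retromer, stood at 70.9, 63.4 and 68.0 CPM in shVPS13C and 56.4, 61.1 and 58.2 CPM in shcontrol (log2 0.20, SE 0.052, edgeR adjusted p = 0.0219). COMMD7, a second Commander subunit, stood at 26.2, 25.8 and 27.4 CPM in shVPS13C and 20.9, 24.7 and 20.9 CPM in shcontrol (log2 0.25, adjusted p = 0.0498). Both sets of knockdown libraries lay above all control libraries, and 25.8% of the 50-base stretches of COMMD7 are also in an overlapping gene. Of the 16 Commander genes 12 had values above 0, with a median of 0.04. Over all 12671 tested genes 6291 had values above 0, with a median of -0.0010. An unadjusted p under 0.05 was found for 3 of the 16 (18.75%), near the 18.9% of all tested genes.

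TOM1L2, which binds ubiquitin and clathrin on endosomes, rose as well, with 88.49, 95.61 and 90.01 CPM in shVPS13C and 82.44, 80.61 and 83.23 CPM in shcontrol (log2 0.15, SE 0.045, edgeR adjusted p = 0.0488). It was the 1 call among 17 tested ESCRT partners, whose median was -0.02. Of the 17, 5 (29.4%) had an unadjusted p under 0.05, beside 18.9% of all tested genes. TFRC, the transferrin receptor, which brings iron into the cell and cycles through endosomes, fell, with 586, 588 and 603 CPM in shVPS13C and 715, 730 and 611 CPM in shcontrol. The groups of TFRC did not overlap, but shcontrol 3 lay near the knockdown libraries (log2 -0.21, SE 0.049, edgeR adjusted p = 0.0146), and without it the value was -0.29. TFRC was the 1 call among 13 cargo receptors, of which 5 (38.5%) had an unadjusted p under 0.05.

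None of 14 retromer partners and none of 16 tethering partners passed. Unadjusted p was under 0.05 for 5 retromer partners (35.7%) and 2 tethering partners (12.5%), beside 18.9% of all tested genes. The smallest p among retromer partners was that of WASHC1, a subunit of the WASH complex that builds actin on endosomes (log2 -0.14, edgeR adjusted p = 0.0543), but 70.5% of its 50-base stretches are also in near-identical WASH copies, so its counts are uncertain. WASHC1 passed with DESeq2 (adjusted p = 0.0404), with no filter (0.0222), with robust edgeR fitting (0.0315) and without shcontrol 1 (0.0273). Of the other WASH genes, WASHC2A (log2 -0.13, edgeR adjusted p = 0.131) and WASHC3 (-0.16, 0.250) were also lower. Neither passed, and the groups overlapped in neither. Shared stretches made up 67.7% in WASHC2A and 0.45% in WASHC3. WASHC2C (-0.05), WASHC4 (0.02) and WASHC5 (-0.0070) overlapped between groups. The smallest p among tethering partners was that of TGFBRAP1, the CORVET subunit that pairs with VPS8. It stood at 58.3, 62.2 and 61.1 CPM in shVPS13C and 67.4, 64.4 and 64.4 CPM in shcontrol (log2 -0.11, edgeR adjusted p = 0.198).

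None of the 4 calls held in every alternative. All 4 ended with DESeq2 and with limma-trend on FPKM. Over the 13 alternatives the adjusted p ran from 0.00601 to 0.163 for COMMD2, from 0.0122 to 0.186 for COMMD7, from 0.0364 to 0.205 for TOM1L2 and from 7.06e-05 to 0.172 for TFRC. Leaving out 1 library ended the call of COMMD2 (shVPS13C 1 or 3, or shcontrol 1), of COMMD7 (any but shcontrol 2), of TOM1L2 (any) and of TFRC (shVPS13C 1 or 2, or shcontrol 1 or 2).

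**Figure D5:**
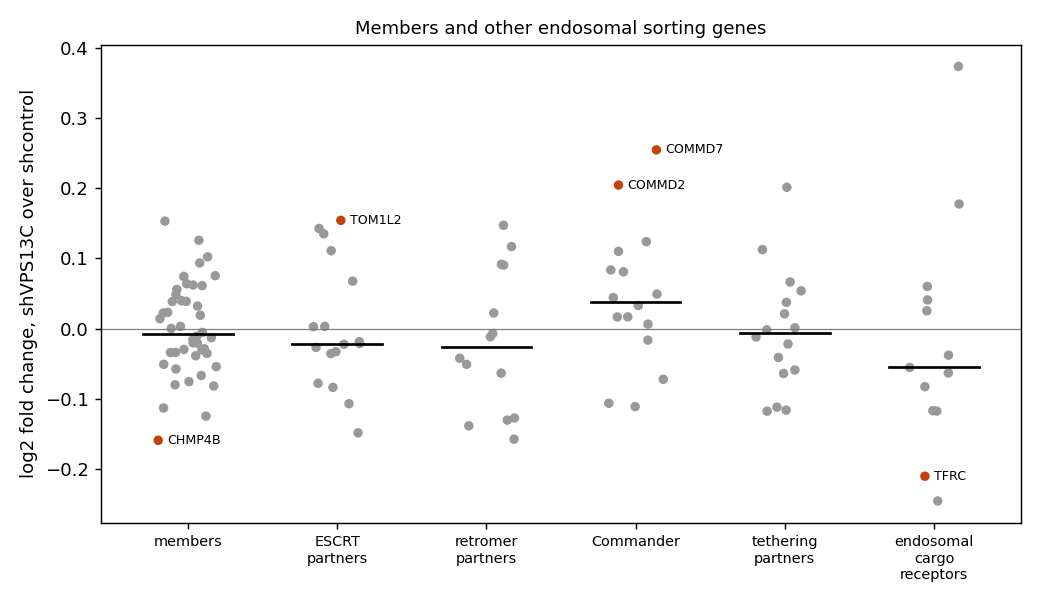
Log2 fold change, shVPS13C over shcontrol (y axis), of each tested gene in the list of 44 (members) and in 5 further lists of endosomal sorting genes; points are genes, black lines medians, and red points passed the edgeR test. CHMP4B (-0.16) and TFRC (-0.21) were lower, and COMMD2 (0.20), COMMD7 (0.25) and TOM1L2 (0.15) higher.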

How the data were processed

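Total RNA of SiHa cells was read on DNBSEQ, 50 bases from one end, per the labels' protocols. The submitters' processing notes name hg38. The aligner, counter, annotation and strand setting were not given in the sources used here. Read counts per the file headers are estimated counts that the authors deposited per gene and per RefSeq transcript, unscaled, with decimals in 14.7% to 15.6% of gene values. FPKM values are the authors' own, scaled by transcript length and library, and serve for levels between genes. A further 30 per-sample columns were not used.

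Counts were rounded, filtered with filterByExpr and scaled by TMM. The groups were compared with edgeR 4.0.16 glmQLFit (group as the single term, residual degrees of freedom 4) in a two-sided test, adjusted by Benjamini-Hochberg over 12671 genes and a threshold of 0.05. Alternatives used DESeq2 1.42.0, limma 3.58.1 on log2(FPKM + 1) or log2(FPKM + 0.1), RLE scaling, no filter, robust fitting, a replicate block and each library left out. Library pairs within a group had a chi-square of 1.98 to 3.57 for each degree of freedom, so none was a duplicate deposit. On simulated data of this comparison (12607 genes, 200 changed) the step recovered 62.1% of 1.2-fold, 85.1% of 1.5-fold and 96.9% of 2-fold changes. Of its calls 9.04% were false, which is above the share of 0.05 that the threshold aims for. The simulated counts were drawn only once.

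Per-library values were set to be given for changed genes, the gene with the smallest p of each complex or list, and the 3 highest and 3 lowest by FPKM; others are named by complex. Per-library values of HGS, TSG101, CHMP3, VPS4A, VPS35 and VPS41 were added after values were seen. The members and lists were chosen with earlier results of these data known. Coordinates come from RefSeq on GRCh38.p14, sequence sharing and exon overlaps from GENCODE release 29.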

Additional observations from a re-analysis of the deposited data

How the results depend on the processing

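The count of changed genes over the whole table was 570, against 321 with DESeq2, 147 with limma-trend on log2(FPKM + 1) and 151 on log2(FPKM + 0.1), and 204 to 463 with 1 library left out. It was higher with no filter (758), with robust fitting (633) and with RLE scaling (571). Of the 44 sorting genes 1 changed, CHMP4B, against 0 with limma-trend at either pseudocount, and 0 to 1 with 1 library left out. Of the other endosomal sorting genes 4 changed, against 6 with no filter and 5 with robust fitting. With DESeq2 1 changed, WASHC1, which is not among the 4, and with limma-trend 0 and 0. The replicate block left 2 (COMMD7 and TOM1L2 no longer passed, edgeR adjusted p = 0.0612 and 0.0781). With 1 library left out the count was 0 to 3. The median log2 fold change of the 44 ran from -0.0101 to 0.00805 with 1 library left out. VPS13C stayed between -1.08 and -0.967 in the same refits. With limma-trend the median of the 44 was -0.0160 on log2(FPKM + 1) and -0.0169 on log2(FPKM + 0.1), beside -0.0082 in the main fit. Same-numbered libraries did not deviate together (correlations of 0.040, -0.0070 and -0.15), and 1 of 6 libraries correlated best with its own number. The labels do not say whether the numbers mark a shared batch, and so few libraries cannot settle it. With the replicate block 483 genes and 1 sorting gene changed.

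The sign of 2 sorting genes changed under alternatives other than a left-out library, none of them called: MVB12B (-0.102 and -0.117 with limma-trend) and VPS16 (-9.7e-06 with no filter, -0.0287 and -0.0301 with limma-trend). The cause was not tested. With 1 library left out, 18 uncalled sorting genes crossed 0. Their log2 ranges were -0.0033 to 0.058 for HGS, -0.061 to 0.038 for TSG101, -0.10 to 0.0071 for VPS28, -0.023 to 0.10 for VPS37C, -0.067 to 0.0036 for MVB12A, -0.027 to 0.013 for CHMP2B, -0.072 to 0.031 for CHMP4A, -0.028 to 0.18 for CHMP6 and -0.039 to 0.016 for CHMP7. They were -0.058 to 0.0051 for VPS4A, -0.011 to 0.085 for VPS4B, -0.0090 to 0.034 for VPS26A, -0.044 to 0.049 for VPS26B, -0.0045 to 0.074 for SNX1, -0.062 to 0.00096 for SNX6, -0.035 to 0.054 for VPS33B, -0.015 to 0.019 for VPS16 and -0.042 to 0.0047 for VPS39. Of 572 values of single sorting genes over 13 alternatives, 532 kept their sign and their side of the threshold. CHMP6, at the lowest level of the 44, had the largest SE, 0.140, and the part that depth has in it was not tested.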
